A study of Mus musculus with 3 samples.

Results

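The genes of the cell cycle and of quiescence were described in ECs sorted from the adult mouse lung. The set was chosen by symbol, not by level, and holds 53 of the 24346 genes of the deposited table: the cyclins, the cyclin-dependent kinases (CDKs) and their inhibitors, the pocket proteins, the E2F factors, and genes of DNA replication and mitosis. All 53 had a value in each of the 3 libraries, named S38, S44 and S52. The libraries belong to 1 group: wild type male C57BL/6J mice, aged 6 to 8 weeks, whose lung ECs were sequenced directly after isolation, with no culture step. An antibody to VE-cadherin was injected into living animals, the lungs were digested with collagenase and dispase, and CD31+ CD45- Podoplanin- cells were sorted. Whether a library came from 1 mouse or from pooled mice is not given in the sources used here, so the spread between libraries may be technical. Since there is no second group, no comparison of conditions was made, and levels are given in FPKM (fragments scaled by transcript length and library depth), which can be compared between genes because it divides by length.

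A cell leaves the resting state when D-type cyclins, made in response to growth factors, bind CDK4 or CDK6 and phosphorylate the pocket proteins RB1, p107 and p130. This frees E2F factors to switch on cyclin E, cyclin A and the replication genes, after which CDK2 and later CDK1 drive DNA synthesis and mitosis. CDK inhibitors of the Cip/Kip and INK4 families hold these kinases back, and in resting cells the DREAM complex of pocket proteins, E2F4 or E2F5 and the MuvB core represses many cell cycle genes through promoter elements called E2F sites and CHR (cell cycle genes homology region). The endothelium of the adult lung is known as a tissue in which few cells divide under normal conditions.

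Promoter letters are shown here for the inhibitor gene with the highest level and for 4 genes of replication and mitosis, because the members' levels were later set beside these elements. The sequences are RefSeq promoters of GRCm38.p6, each from 250 bases before to 50 bases after a transcription start, 5′ to 3′ on the gene's own strand. Capitals mark an E2F site (TTTGGCGC, TTTCCCGC, TTTGCCGC or TTTCGCGC), a CHR (TTTGAA) or a CCAAT box (CCAAT), read on both strands. *Cdkn1a* has 2 such windows, chr17:29090729-29091028 and chr17:29093519-29093818, both on the plus strand. *Mcm6* lies at chr1:128359656-128359955, *Cdk1* at chr10:69352863-69353162, *Mki67* at chr7:135716330-135716629 and *Cdc20* at chr4:118437294-118437593, all on the minus strand.
Cdkn1a, upstream start: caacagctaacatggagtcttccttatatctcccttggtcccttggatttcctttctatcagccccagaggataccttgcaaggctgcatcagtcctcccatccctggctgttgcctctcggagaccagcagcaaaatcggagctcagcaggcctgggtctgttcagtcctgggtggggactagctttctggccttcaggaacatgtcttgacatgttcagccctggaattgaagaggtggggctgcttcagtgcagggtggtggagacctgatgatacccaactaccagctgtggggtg
Cdkn1a, downstream start: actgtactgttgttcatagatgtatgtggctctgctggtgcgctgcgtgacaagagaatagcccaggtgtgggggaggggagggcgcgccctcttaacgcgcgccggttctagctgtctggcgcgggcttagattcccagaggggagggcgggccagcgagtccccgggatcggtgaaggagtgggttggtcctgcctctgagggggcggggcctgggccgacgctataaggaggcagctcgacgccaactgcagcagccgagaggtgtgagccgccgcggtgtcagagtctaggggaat
Mcm6: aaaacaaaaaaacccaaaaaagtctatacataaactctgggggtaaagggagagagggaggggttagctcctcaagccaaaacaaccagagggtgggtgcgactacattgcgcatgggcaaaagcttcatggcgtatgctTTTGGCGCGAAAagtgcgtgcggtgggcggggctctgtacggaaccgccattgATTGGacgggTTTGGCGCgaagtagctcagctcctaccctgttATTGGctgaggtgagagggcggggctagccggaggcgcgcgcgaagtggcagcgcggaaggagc
Cdk1: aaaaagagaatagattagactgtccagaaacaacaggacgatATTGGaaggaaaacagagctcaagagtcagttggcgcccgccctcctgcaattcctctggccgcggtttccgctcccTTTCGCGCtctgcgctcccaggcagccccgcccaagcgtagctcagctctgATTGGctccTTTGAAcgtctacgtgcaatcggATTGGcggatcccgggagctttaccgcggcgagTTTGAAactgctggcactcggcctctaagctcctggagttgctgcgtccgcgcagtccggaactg
Mki67: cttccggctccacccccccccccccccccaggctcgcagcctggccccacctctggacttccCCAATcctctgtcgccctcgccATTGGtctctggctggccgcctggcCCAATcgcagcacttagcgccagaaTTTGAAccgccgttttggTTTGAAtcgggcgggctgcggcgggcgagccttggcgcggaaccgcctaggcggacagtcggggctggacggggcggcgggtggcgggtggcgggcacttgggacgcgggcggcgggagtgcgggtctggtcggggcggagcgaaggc
Cdc20: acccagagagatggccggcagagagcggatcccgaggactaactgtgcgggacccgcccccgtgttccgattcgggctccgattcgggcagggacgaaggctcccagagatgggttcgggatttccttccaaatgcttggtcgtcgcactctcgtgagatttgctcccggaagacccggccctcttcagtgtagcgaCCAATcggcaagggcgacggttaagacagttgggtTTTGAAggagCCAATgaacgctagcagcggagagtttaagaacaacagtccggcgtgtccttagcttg
Neither *Cdkn1a* window holds any of these letters. In *Mcm6*, E2F letters begin at base -110 and, on the opposite strand, at -106, where they overlap, and again at -47, with -1 the base before the start. *Cdk1* holds E2F letters at -131 and CHR letters at -71 and -15. The CHR letters begin at -116 and -98 in *Mki67* and at -18 in *Cdc20*, and these genes hold no E2F letters in the window.

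The sorted cells carried the endothelial markers. All 8 endothelial marker genes were at 1 FPKM or above in every library, with medians from 307 to 357 FPKM, and *Pecam1* (CD31) was the highest. The depth of each library was estimated from the steps between low values as 33900000 to 38800000 fragments, at which 3 fragments of a transcript of 2000 bases are worth 0.0420 to 0.0478 FPKM. S52 stood apart in markers of other cell types: the summed level of the 5 platelet and megakaryocyte genes was 1709 FPKM in S38, 1357 in S44 and 40.2 in S52, that of the 5 alveolar type 2 genes was 3778, 3164 and 755, and that of the 5 airway genes was 2767, 2303 and 401. All 5 platelet, all 5 alveolar type 2 and 4 of the 5 airway genes were at 1 FPKM or above throughout, and the most abundant were *Ppbp*, *Sftpc* and *Scgb1a1*. The part of such cells in the values below was not tested, and in bulk RNA fewer cells of a type cannot be told apart from less RNA per cell.

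The levels of the cell cycle genes differed by role. Group medians were highest for the cyclin D and CDK4/6 genes (66.2 FPKM) and the Cip/Kip inhibitors (36.5 FPKM). INK4 inhibitors (12.7 FPKM), pocket proteins (10.4 FPKM) and replication genes (9.21 FPKM) lay close together. The cyclin E/A and CDK2 genes (1.49 FPKM), E2F factors (1.16 FPKM), mitosis genes (0.763 FPKM) and cyclin B and CDK1 genes (0.627 FPKM) lay lowest. Single genes departed from their group, such as *Cdk6* at a mean of 2.20 FPKM and *Pcna* at 221 FPKM. Of the 53 genes, 30 (56.6%) were at 1 FPKM or above in every library, beside 43.9% of all genes of the table. None of the 53 was listed at 0 in every library, beside 29.5% of all genes, and 2 genes, *Aurkb* and *E2f8*, were listed at 0 in at least 1 library. Another 13 genes lay on both sides of 1 FPKM and 10 lay below it in every library. The median of the members' means was 3.18 FPKM, against 0.784 FPKM over all genes and 11.2 FPKM over the 11770 genes whose mean was at least 1 FPKM.

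**Figure D1:**
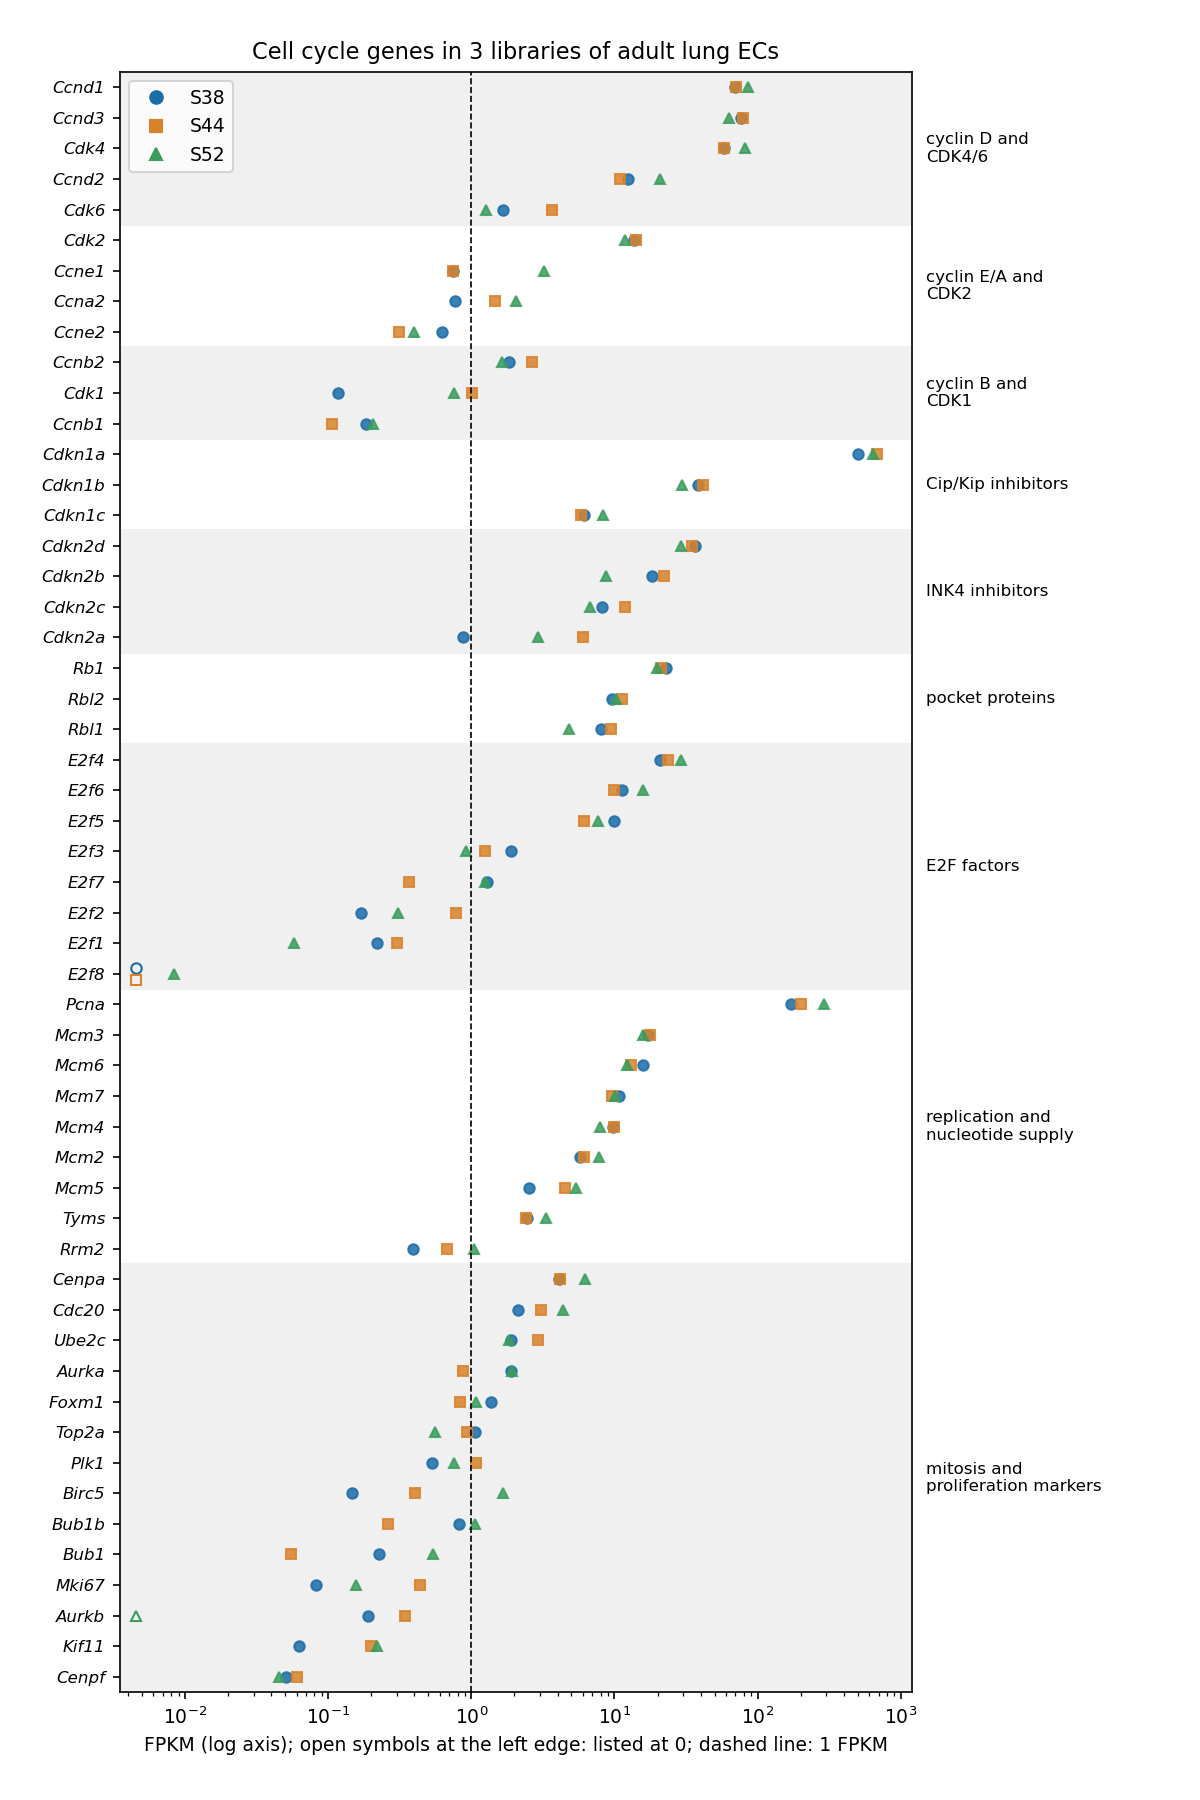
FPKM of each of the 53 genes on a log axis, 1 symbol per library (circle S38, square S44, triangle S52), grouped by role and ordered by mean; open symbols at the left edge are values listed at 0. *Cdkn1a*, at 504 to 686 FPKM, lies farthest to the right, and 11 of the 14 mitosis genes have at least 1 library below 1 FPKM.

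The D-type cyclins and CDK4, the kinase machinery that receives growth signals, were among the most abundant members. All 5 genes of this group were at 1 FPKM or above in every library, with a group median of 66.2 FPKM. *Ccnd1* (cyclin D1) had 69.5, 70.6 and 86.1 FPKM in S38, S44 and S52, a mean of 75.4 ± 9.33 (SD, n = 3). *Ccnd3* (cyclin D3) had 76.7, 78.5 and 63.6 FPKM, a mean of 72.9 ± 8.14. The order of these genes changed between libraries, with *Ccnd1* above *Ccnd3* in S52 alone, and their ranges overlapped.

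*Ccnd2* (cyclin D2) was lower than both, at 12.4, 10.8 and 20.7 FPKM, and contributed 8.92% ± 2.84 of the D-type cyclin sum. *Cdk4* had 58.6, 57.8 and 82.2 FPKM and *Cdk6*, which encodes the other partner kinase of the D-type cyclins, had 1.65, 3.69 and 1.26 FPKM. The ratio of *Cdk4* to *Cdk6* was thus 35.5 in S38, 15.7 in S44 and 65.4 in S52: the direction was shared by all libraries, and the size was not. Of the exon bases of *Ccnd1* and *Cdk4*, 23.4% and 19.7% lie within other annotated genes, and the libraries do not mark strand, so fragments there cannot be assigned to 1 gene. The neighbour of *Cdk4*, *Tspan31*, which was looked up for this reason, had 77.0, 78.3 and 68.1 FPKM.

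The cyclins of S phase and mitosis were far lower than the D-type cyclins, while *Cdk2*, whose protein pairs with cyclins E and A, kept a level above 10 FPKM. *Cdk2* had 13.6, 14.2 and 11.9 FPKM, a mean of 13.2 ± 1.21 (SD, n = 3), and differed little between libraries. *Ccne1* (cyclin E1) had 0.746, 0.741 and 3.20 FPKM, so that S52 was above the other libraries. *Ccne2* (cyclin E2) had 0.624, 0.312 and 0.400 FPKM, and 17.4% of its exon bases lie in other genes, among them the more abundant *Ints8* at 19.8, 16.6 and 26.5 FPKM. *Ccna2* (cyclin A2, a partner of CDK2 and CDK1) had 0.763, 1.46 and 2.04 FPKM, and 12.5% of its exon bases lie in other genes, among them *Exosc9* at 11.8, 12.1 and 12.6 FPKM. S38 was the lowest library for *Ccna2*, and S52 the highest.

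Among the genes of the mitotic kinase, *Ccnb2* (cyclin B2) was detected above 1 FPKM throughout, at 1.82, 2.63 and 1.64 FPKM. *Ccnb1* (cyclin B1), the main activator of CDK1 at the entry into mitosis, had 0.183, 0.107 and 0.204 FPKM, which corresponds to about 16, 10 and 16 fragments, and it shares 23.2% of its 51-base words with other genes, mainly the pseudogene *Ccnb1-ps*. At that depth no difference of *Ccnb1* between libraries was detectable, since the exact Poisson 95% intervals of its estimated fragments overlapped. *Cdk1* had 0.117, 1.01 and 0.750 FPKM, with S38 the lowest. The ratio of *Cdk2* to *Cdk1* followed, at 116 in S38 against 14.0 in S44 and 15.8 in S52. Taken as sums, the D-type cyclins exceeded the E-, A- and B-type cyclins 38.3-fold in S38, 30.5-fold in S44 and 22.8-fold in S52.

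**Figure D2:**
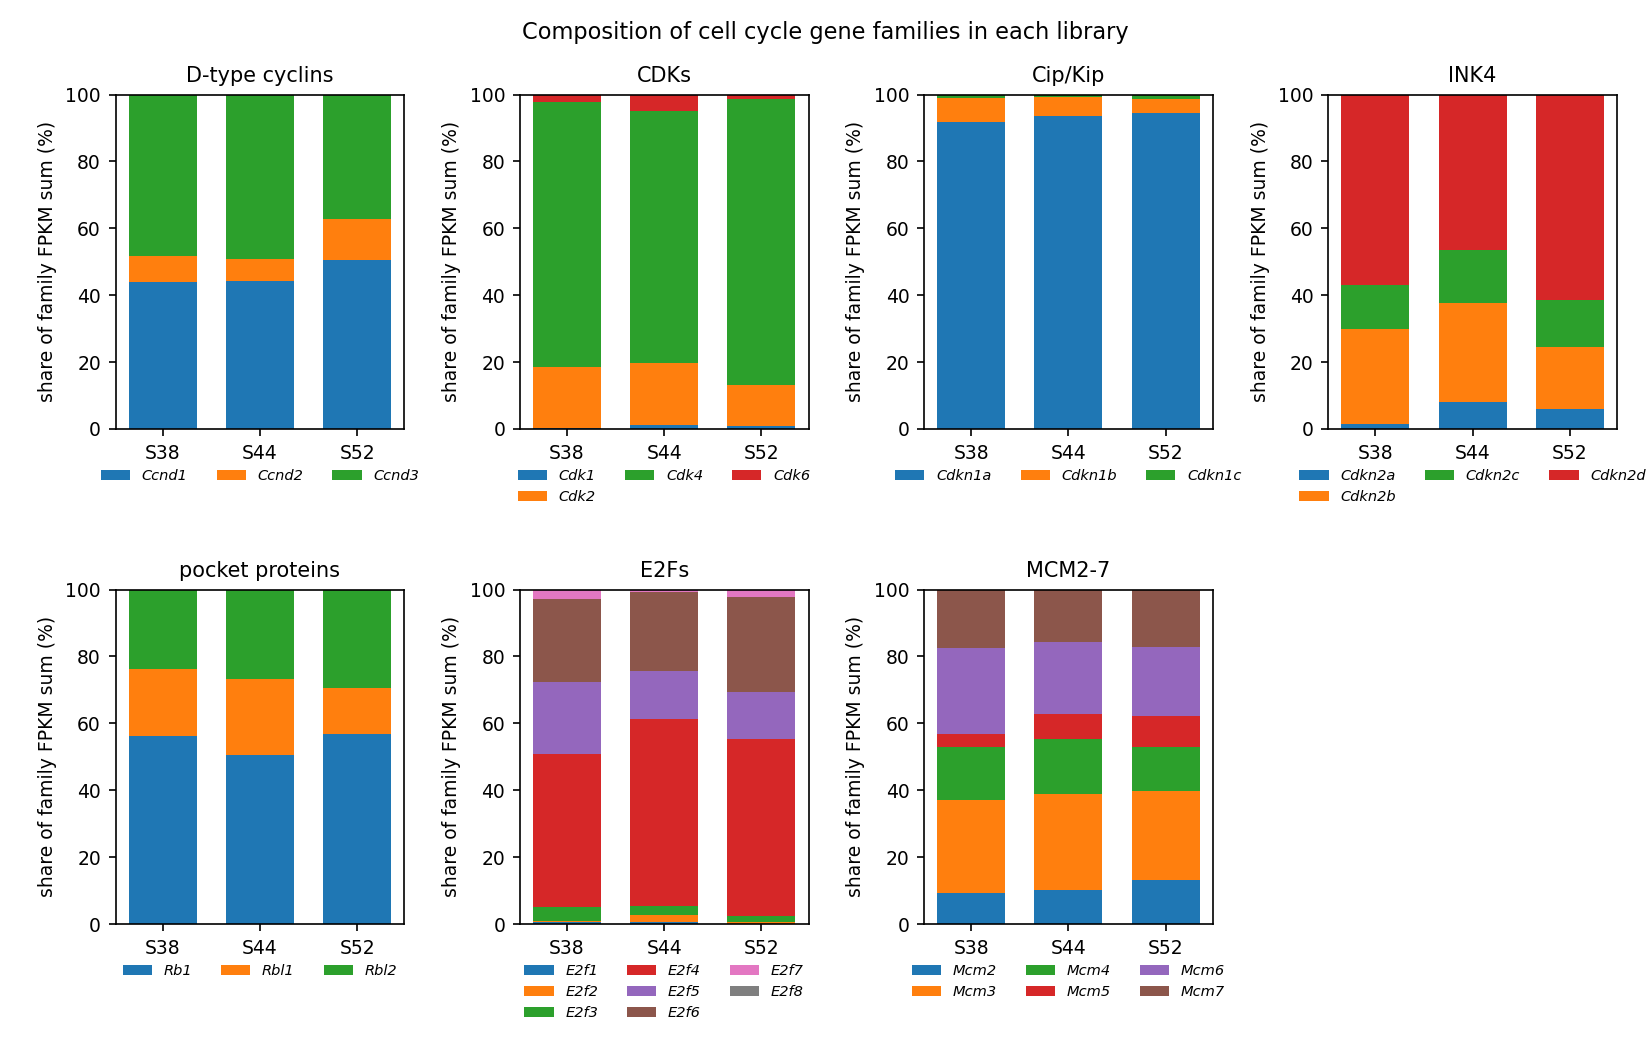
Percent of the FPKM sum of 7 gene families taken by each member, 1 bar per library, with the D-type cyclins, CDKs, Cip/Kip and INK4 inhibitors in the upper row and the pocket proteins, E2Fs and MCM2-7 genes in the lower row. *Cdkn1a* takes 91.9 to 94.4% of the Cip/Kip sum and *Cdk4* 75.4 to 85.6% of the CDK sum.

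*Cdkn1a*, which encodes p21, the Cip/Kip inhibitor that p53 induces, was the most abundant of the 53 genes and stood at the 99.3 percentile of all genes. It had 504 FPKM in S38, 686 in S44 and 642 in S52, a mean of 611 ± 94.8 (SD, n = 3). It made up 93.3% ± 1.30 of the Cip/Kip sum. *Cdkn1b* (p27), an inhibitor associated with quiescence, had 38.5, 41.6 and 29.4 FPKM. The ratio of *Cdkn1a* to *Cdkn1b* was 13.1, 16.5 and 21.8, so *Cdkn1a* led in every library. *Cdkn1c* (p57), an imprinted gene, had 6.11, 5.85 and 8.37 FPKM, and 30.7% of its exon bases lie in another annotated gene. *Cdkn1a* also exceeded the sum of the D-type cyclins, by 3.18-fold in S38, 4.29-fold in S44 and 3.77-fold in S52.

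The INK4 inhibitors, which act on CDK4 and CDK6 alone, were led by *Cdkn2d*. *Cdkn2d* (p19) had 36.3, 34.9 and 29.2 FPKM and took 55.0% ± 7.69 of the family sum. *Cdkn2b* (p15), which TGF-beta is known to induce, had 18.2, 22.2 and 8.71 FPKM. *Cdkn2c* (p18) had 8.24, 11.8 and 6.74 FPKM, below *Cdkn2b* in each library although the ranges of these genes overlapped. *Cdkn2a* had 0.872, 6.07 and 2.90 FPKM, with about 24 fragments in S38. Its ratio of 6.95 between S44 and S38 was the largest among the 36 genes whose mean was at least 1 FPKM. *Cdkn2a* encodes both p16 and, in another reading frame, Arf, and a gene-level value does not separate them. All 4 INK4 genes were lower in S52 than in S44. The Cip/Kip sum exceeded the INK4 sum 8.64-fold, 9.78-fold and 14.3-fold in S38, S44 and S52.

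All 3 pocket protein genes, whose products bind E2F factors, were above 1 FPKM in every library. *Rb1* had 22.9, 21.3 and 19.8 FPKM, a mean of 21.3 ± 1.57 (SD, n = 3), and took 54.6% ± 3.45 of the family sum. *Rbl2* (p130), the pocket protein that predominates in the DREAM complex of resting cells, had 9.68, 11.2 and 10.2 FPKM. *Rbl1* (p107), which is known to rise in cycling cells, had 8.11, 9.51 and 4.79 FPKM and was below *Rbl2* in each library, with S52 the lowest. For *Rb1* and *Rbl2*, 14.9% and 21.0% of the exon bases lie within other genes, and the neighbours *Lpar6* and *Rcbtb2* of *Rb1* had means of 22.9 and 8.65 FPKM. *Aktip*, which overlaps *Rbl2*, had 21.3, 15.4 and 22.7 FPKM, above *Rbl2* in each library.

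The E2F factors divided into an abundant and a scarce set. *E2f4*, a repressor-type factor that pairs with pocket proteins, had 20.8, 23.5 and 29.3 FPKM and took 51.5% ± 5.15 of the E2F sum. *E2f6*, a repressor that works without pocket proteins, had 11.3, 9.90 and 15.7 FPKM. *E2f5*, which like *E2f4* belongs to the DREAM complex, had 9.86, 6.12 and 7.68 FPKM. These repressors kept the order *E2f4*, *E2f6*, *E2f5* in all 3 libraries, and the ranges of neighbours in that order did not overlap.

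The activators *E2f1* to *E2f3*, which drive S phase genes, were lower. *E2f3* had 1.90, 1.25 and 0.910 FPKM, *E2f2* had 0.168, 0.783 and 0.306 FPKM, and *E2f1* had 0.218, 0.303 and 0.0579 FPKM. The sum of *E2f4* to *E2f6* exceeded that of *E2f1* to *E2f3* by 18.4-fold in S38, 16.9-fold in S44 and 41.3-fold in S52. Among the atypical repressors, which are E2F targets that normally appear in late S phase, *E2f7* had 1.28, 0.365 and 1.24 FPKM. *E2f8* was listed at 0 in S38 and S44 and at 0.00831 FPKM in S52, about 1 fragment. Neighbours in the order *E2f3*, *E2f7*, *E2f2*, *E2f1* overlapped in their ranges.

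Most members of the replication group did not share the low levels of the S phase cyclins. Of these 9 genes, 8 were at 1 FPKM or above in every library, and the group median was 9.21 FPKM. The MCM2-7 genes encode the 6 subunits of the replicative helicase, which are loaded on DNA in equal number. *Mcm3* had 17.1, 17.6 and 15.7 FPKM and *Mcm6* had 15.9, 13.0 and 12.3 FPKM. *Mcm7* had 10.7, 9.59 and 10.2 FPKM and *Mcm4* had 9.78, 9.97 and 7.87 FPKM. *Mcm2* had 5.74, 6.11 and 7.74 FPKM and *Mcm5* was the lowest in each library, at 2.52, 4.54 and 5.37 FPKM. The transcript levels of the subunits were thus unequal: *Mcm3* exceeded *Mcm5* 6.78-fold in S38, 3.87-fold in S44 and 2.93-fold in S52. *Mcm7* shares 22.8% of its 51-base words with other genes, while *Mcm3* shares none and *Mcm5* shares 0.354%. Of the exon bases of *Mcm7*, 12.6% lie in other genes, among them *Cops6* at 50.2, 57.5 and 54.2 FPKM.

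*Pcna*, which encodes the sliding clamp of DNA polymerases and also serves DNA repair, was the second most abundant member. It had 172, 201 and 289 FPKM, a mean of 221 ± 61.1 (SD, n = 3), and exceeded *Mcm3* 10.1-fold in S38, 11.4-fold in S44 and 18.4-fold in S52. The annotation holds 2 processed copies of *Pcna*, and 18.9% of its 51-base words also occur in *Pcna-ps2*, so part of its fragments could be counted elsewhere or left out. The nucleotide supply genes were lower than *Pcna* and than every MCM gene in each library. *Tyms* (thymidylate synthase) had 2.43, 2.39 and 3.33 FPKM. *Rrm2*, the small subunit of ribonucleotide reductase made in S phase, had 0.390, 0.671 and 1.05 FPKM, the lowest of this group, and was higher in S52 than in the other libraries.

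The mitosis and proliferation genes formed the lowest large group. Of the 14 genes, 3 (*Cenpa*, *Cdc20* and *Ube2c*) were at 1 FPKM or above in every library, and the group median was 0.763 FPKM, near the 0.784 FPKM over all genes of the table. *Mki67*, which encodes the proliferation marker Ki-67, had 0.0823 FPKM in S38, 0.438 in S44 and 0.157 in S52, or about 31, 168 and 53 fragments. *Top2a* (topoisomerase II alpha) had 1.07, 0.929 and 0.557 FPKM. S44 was the highest library for *Mki67*, and S38 for *Top2a*.

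The genes of the spindle and its checkpoint were low and varied in their order. *Bub1* had 0.227, 0.0551 and 0.541 FPKM and *Bub1b* (BUBR1) had 0.817, 0.262 and 1.05 FPKM, both checkpoint kinase family genes with S44 the lowest. *Kif11*, a spindle motor, had 0.0621, 0.197 and 0.221 FPKM. *Cenpf*, a kinetochore protein of G2 and mitosis, had 0.0504, 0.0605 and 0.0455 FPKM, about 21, 26 and 17 fragments, and its counting intervals overlapped in all libraries. *Cenpa*, the centromeric histone H3 variant, was the highest of the group at 4.10, 4.18 and 6.21 FPKM. These centromere genes thus spanned the group, with means of 0.0522 FPKM for *Cenpf* and 4.83 FPKM for *Cenpa*.

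Mitotic kinases and the genes that act with them ranged from 0 to 4.37 FPKM. *Aurka* had 1.89, 0.869 and 1.91 FPKM. *Aurkb*, the kinase of the chromosomal passenger complex, had 0.190 and 0.342 FPKM in S38 and S44 and was listed at 0 in S52. *Birc5* (survivin), its partner in that complex, had 0.145, 0.406 and 1.66 FPKM, so that S52 was the highest library for *Birc5* and the lowest for *Aurkb*. *Plk1* had 0.527, 1.08 and 0.761 FPKM, and *Foxm1*, a transcription factor for G2 and mitosis genes, had 1.37, 0.832 and 1.07 FPKM. *Cdc20*, an activator of the anaphase promoting complex (APC/C), had 2.10, 3.06 and 4.37 FPKM, and *Ube2c*, its ubiquitin-conjugating enzyme, had 1.90, 2.93 and 1.82 FPKM. Of the exon bases of *Ube2c*, 22.8% lie in other genes. For *Cdc20* 2.84% do, in the far more abundant *Elovl1* at 109, 100 and 83.7 FPKM. *Cdc20* also shares 10.1% of its 51-base words with other genes. The libraries did not order these genes in 1 way: the group median was 0.672 FPKM in S38, 0.635 in S44 and 0.908 in S52.

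Markers of blood and lung cells that can cycle or hold cell cycle RNA are given here because these levels are low. None of the 6 T cell markers reached 1 FPKM in every library, with sums of 0.701 to 3.51 FPKM and *Cd3e*, *Cd3g* and *Cd28* at 0 in at least 1 library. The 4 B cell markers summed to 7.10 to 21.9 FPKM, 2 of them at 1 FPKM or above throughout, led by *Cd79a*. The 4 NK cell markers summed to 0.163 to 9.51 FPKM, led by *Gzma*, with *Ncr1*, *Klrb1c* and *Nkg7* at 0 in at least 1 library. The 5 macrophage markers summed to 18.7 to 31.1 FPKM (2 at 1 FPKM or above throughout, *Cd68* the highest, *Marco* at 0 in at least 1 library), and the 3 neutrophil markers with a value to 3.38 to 47.3 FPKM (1 throughout, *S100a9* the highest). Of the 4 lymphatic EC markers 3 were at 1 FPKM or above throughout, with sums of 414 to 623 FPKM and *Lyve1* the highest, while *Prox1* had 0.132 to 0.598 FPKM. The remaining lists summed to 273 to 373 FPKM for 4 alveolar type 1 genes (3 throughout, *Hopx* the highest), 120 to 202 FPKM for 5 mural genes (4 throughout, *Tagln* the highest), 47.9 to 82.6 FPKM for 5 fibroblast genes (all throughout, *Dcn* the highest) and 0 to 5.83 FPKM for 3 mesothelial genes (none throughout, and *Msln*, *Upk3b* and *Wt1* at 0 in at least 1 library). S52 had the lowest sum for each of the T, B and NK cell, macrophage and neutrophil lists. Whether such cells carried part of the mitosis signal was not tested.

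Differences between libraries were larger for some members than for others. Of the 36 genes whose mean was at least 1 FPKM, 9 (25%) had a highest library over 2 times the lowest, beside 20.1% of the 11770 genes that met the same limit. These were *Cdkn2a*, with a ratio of 6.95, *Ccne1* at 4.32, *Cdk6* at 2.93, *Ccna2* at 2.67, *Cdkn2b* at 2.55, *Aurka* at 2.19, *Mcm5* at 2.13, *E2f3* at 2.08 and *Cdc20* at 2.08. With S52 left out the count was 3, and 31 of the 53 genes, in place of 30, reached 1 FPKM throughout. The share of all genes was not taken for that setting. Exact Poisson 95% intervals of the estimated fragments, which cover counting error only, were also compared. For 34 of the 36 genes they were apart between at least 1 pair of libraries, and the exceptions were *Mcm7* and *Ube2c*. Among the genes with a mean under 1 FPKM they were apart for 14 of 17. Intervals were not taken over all genes, so these counts do not set the members apart from the rest of the table.

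On the log2(FPKM + 1) scale the members did not move together from library to library. The median difference over the 53 genes was 0.04 for S44 minus S38 and 0.03 for S52 minus S38, beside -0.03 and -0.08 over the 11770 genes. Scaling each library to the same FPKM sum turned these medians to -0.25 and -0.02 for the 53 genes and to -0.44 and -0.34 for the 11770, so no direction between libraries is drawn from the members' median. As deposited, S52 minus S44 had a median of -0.79 over the 4 INK4 genes, from -1.26 to -0.25. It was 0.20 over the replication genes, beside -0.06 over the 11770 genes. After scaling to the same sum the median was 0.09 over the 11770 genes and 0.08 over the 53. No scaled value was taken for the INK4 or replication genes, so their medians cannot be set beside the scaled ones. With 3 libraries of 1 group an exact sign-flip test cannot give a two-sided p below 0.25, and none was run. Across the 53 genes Pearson's r of log2 levels was 0.98 between S38 and S44, as a description over genes that span a wide range. Over the 17 genes with a mean under 1 FPKM it was 0.33, 0.54 and 0.41 for the 3 pairs of libraries, so their order within that set varied with the library.

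**Figure D3:**
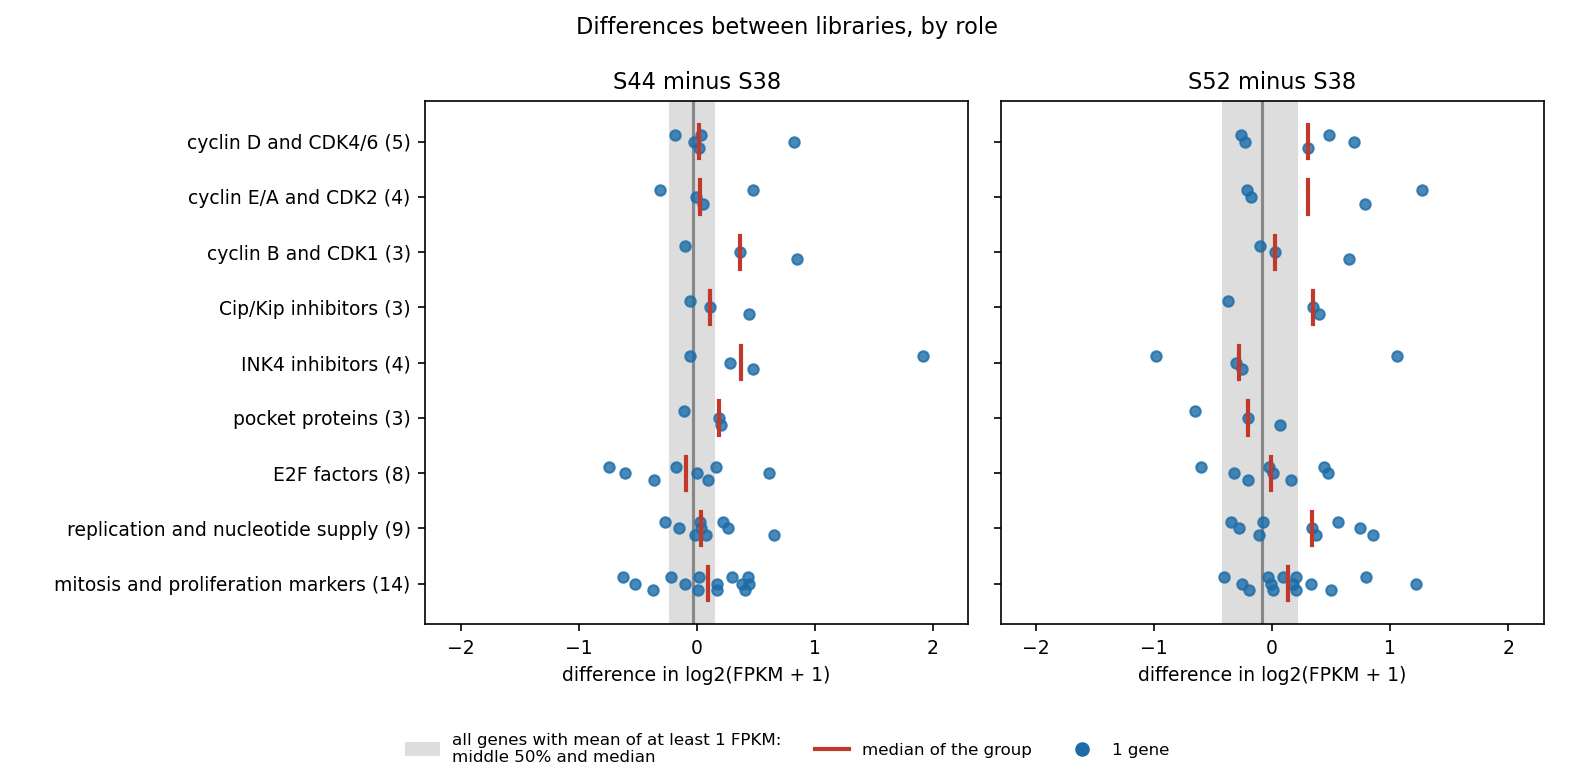
Difference in log2(FPKM + 1) of each gene between S44 and S38 (left) and between S52 and S38 (right), 1 point per gene and a red bar for the median of each role group, with the middle 50% and the median of all genes whose mean was at least 1 FPKM in grey. The farthest point to the right in the left panel is *Cdkn2a*, at 1.92.

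The pathway partners of the members were counted from lists chosen by function. For each list the limit was 1 FPKM in every library, which 43.9% of all genes of the table passed. Of 8 MuvB and E2F partners, 7 were at 1 FPKM or above in every library. *Rbbp4*, a histone-binding subunit of MuvB, had a mean of 43.4 FPKM and *Tfdp1*, the dimer partner of E2F factors, had 13.7 FPKM. The MuvB subunits *Lin37* (15.1, 9.35 and 13.3 FPKM) and *Lin9* (1.82, 1.42 and 2.50 FPKM) varied most by ratio in this list. Of 11 genes for CDK activation, 8 passed, led by *Cks2*, a CDK-binding subunit, at 11.9 FPKM and *Ccnh* (cyclin H of the CDK-activating kinase) at 9.63 FPKM. The phosphatase gene *Cdc25a* fell within 2.38 to 4.37 FPKM and *Cks1b* within 6.57 to 11.5 FPKM.

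Genes of the ubiquitin ligases that remove cell cycle proteins were mostly well detected. Of 14 APC/C and SCF genes, 13 were at 1 FPKM or above in every library, beside 43.9% of all genes. *Anapc5* had a mean of 105 FPKM and *Skp1a* 102 FPKM. The exception was *Fbxo5* (EMI1), an inhibitor of APC/C that is itself an E2F target, at 1.36, 0.451 and 2.73 FPKM. *Anapc4* had 21.5, 21.1 and 13.7 FPKM.

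Genes around p53 were high. All 12 genes of the p53, BTG/TOB and GADD45 list were at 1 FPKM or above in every library, with medians of 28.2, 29.9 and 41.9 FPKM. *Gadd45b*, a stress-induced gene, had 122, 132 and 286 FPKM, and *Gadd45g*, of the same family, had a mean of 154 ± 17.8 FPKM (SD, n = 3). S52 was higher than the other libraries for *Gadd45b*, while *Btg3*, an antiproliferative BTG/TOB gene, was lower in S44, at 22.7, 10.7 and 22.5 FPKM. Of 17 licensing partners, which act on the loading or the start of the MCM helicase, 11 (64.7%) passed, beside 43.9% of all genes. The origin recognition subunits *Orc6* (17.3 FPKM) and *Orc5* (16.4 FPKM) led this list, and *Gins3* (1.51, 1.53 and 0.430 FPKM) and *Gins1* (3.70, 1.11 and 2.78 FPKM), subunits of the GINS complex, varied most by ratio.

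Published lists of S phase and G2/M genes, as used to score single cells, were counted as well, and 9 and 13 of their genes are among the 53 members. Of 42 S phase genes with a value, 24 were at 1 FPKM or above in every library, with medians of 2.38, 2.14 and 2.07 FPKM. Of 54 G2/M genes, 21 were, with medians of 0.594, 0.817 and 0.718 FPKM. Without the members, the counts were 18 of 33 with a median of 1.53 FPKM and 17 of 41 with a median of 0.649 FPKM. Relative to the 43.9% of all genes, 57.1% of the S phase list and 38.9% of the G2/M list passed.

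The highest genes of the S phase list outside the 53 act on histones or histone mRNA. *Nasp*, a histone chaperone, had 29.4, 29.0 and 73.6 FPKM, and *Slbp*, which binds histone mRNA, had 20.0, 23.4 and 34.4 FPKM. *Wdr76* had 1.48, 1.79 and 0.700 FPKM. In the G2/M list *Tubb4b*, a tubulin that non-dividing cells also use, had a mean of 156 FPKM and *Hn1* had 101 FPKM. *Tacc3*, a spindle protein, had 0.576, 1.88 and 1.18 FPKM, and *Hjurp*, the chaperone of CENP-A, had 5.25, 4.27 and 2.37 FPKM.

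**Figure D4:**
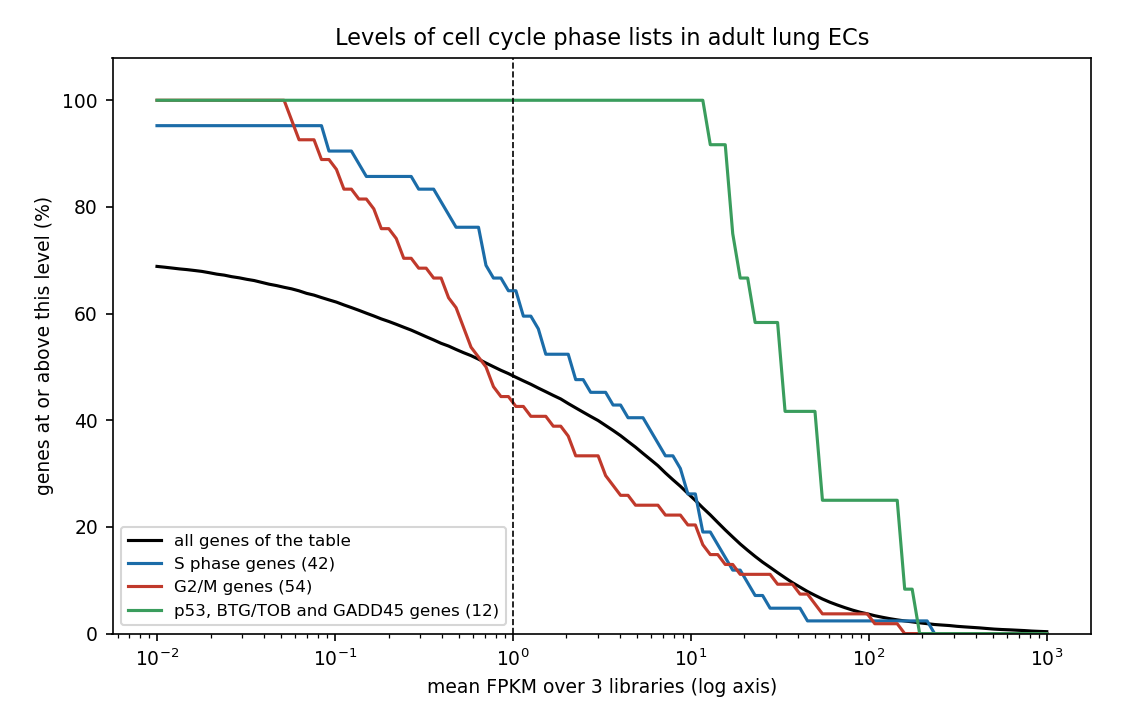
Percent of genes at or above a given mean FPKM (log axis) for all genes of the table (black), the 42 S phase genes (blue), the 54 G2/M genes (red) and the 12 p53, BTG/TOB and GADD45 genes (green). At the dashed line of 1 FPKM the S phase curve lies above that of all genes and the G2/M curve below it, and the green curve stays at 100%.

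The promoter letters shown above were searched in every RefSeq promoter. Of the 53 genes, 42 had an entry, with 49 promoters in all. An E2F site was found in 11 of the 49 (22.4%), beside 2.26% of all 32851 promoters. The CHR letters were in 18 (36.7%) beside 17.9%, the CCAAT letters in 33 (67.3%) beside 37.4%, and CHR and CCAAT together in 16 (32.7%) beside 6.95%.

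The letters were spread unevenly over the roles. Of the 12 mitosis genes with an entry, 10 held CHR letters and 0 held an E2F site, and of 8 replication genes 4 held an E2F site: *Mcm3*, *Mcm5*, *Mcm6* and *Mcm7*. CHR letters were in none of the 3 cyclin D and CDK4/6 genes or the 2 Cip/Kip genes with an entry, but in 1 of 4 INK4 genes (*Cdkn2b*), 1 of 2 pocket protein genes (*Rbl2*) and 3 of 6 E2F genes. The 16 genes with both CHR and CCAAT letters had a median of 0.820 FPKM and reached at most 6.53 FPKM (*Mcm2*). The 8 genes with an E2F site and without that pair had a median of 8.81 FPKM, from 0.963 to 16.8 FPKM. The remaining 18 genes had a median of 9.65 FPKM, from 0.165 FPKM (*Ccnb1*) to 611 FPKM (*Cdkn1a*).

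Among all 17191 genes with a promoter and a value, genes that hold CHR letters had a median of 0.212 FPKM and the rest 1.78 FPKM. Within the roles the direction was mixed. The medians with and without CHR letters were 0.820 and 0.506 FPKM for mitosis genes (10 of 12 with the letters). They were 1.33 and 0.165 for cyclin B and CDK1 (2 of 3), 16.4 and 8.94 for INK4 (1 of 4), and 10.4 and 7.47 for pocket proteins (1 of 2). CHR genes were lower for E2F factors, 0.419 and 0.963 (3 of 6), and for replication genes, 6.53 and 10.2 (1 of 8). Such medians rest on few genes, in part on 1. For E2F sites the medians over all genes with a promoter and a value were 5.91 FPKM with and 1.14 FPKM without. These are descriptions of letters within 300 bases, with no test, since genes of 1 role share both their letters and their level. They do not show that a factor binds, and a window without a match says only that these letters are not in it. Within the shorter window of 100 bases before to 50 after the start, E2F sites were in 7 member promoters (14.3%, beside 1.27% of all promoters), CHR letters in 16 (32.7%, beside 8.01%) and CCAAT letters in 27 (55.1%, beside 23.4%).

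**Figure D5:**
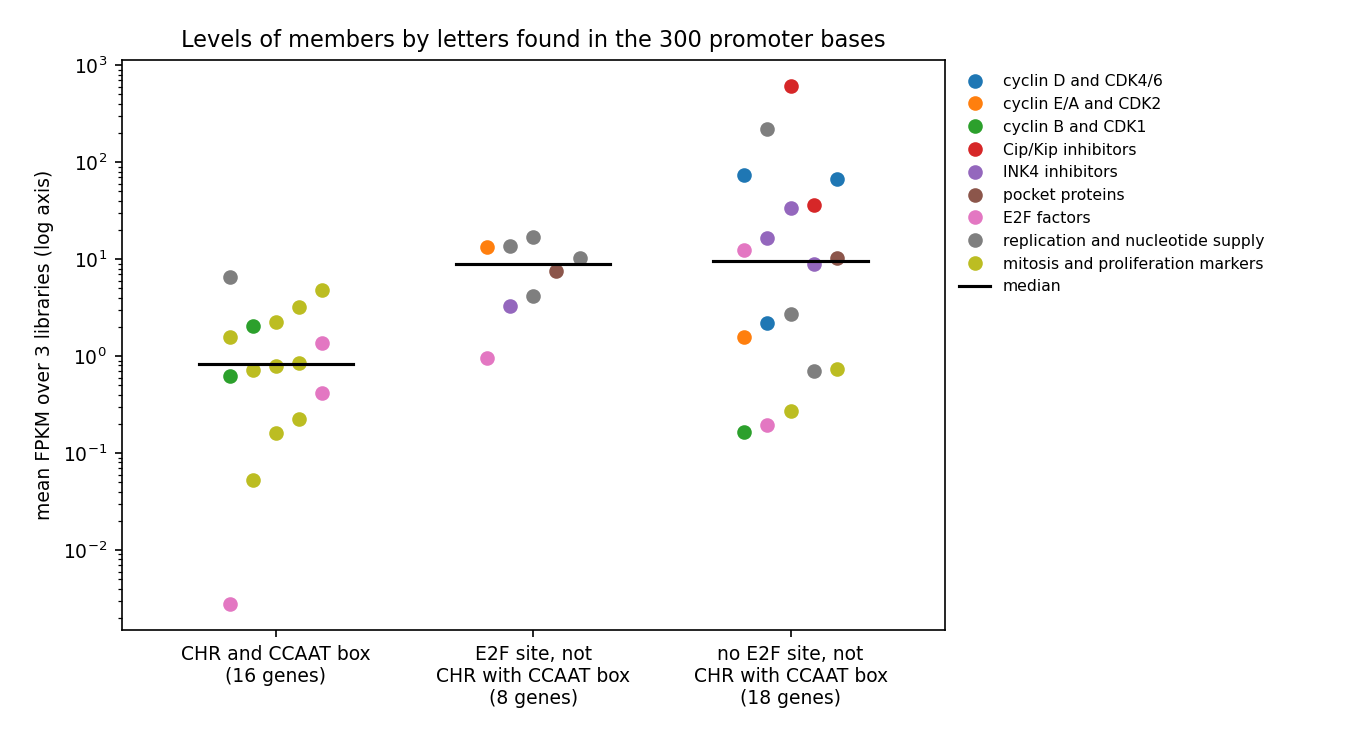
Mean FPKM (log axis) of the 42 genes with a RefSeq promoter, in 3 classes by the letters found, 1 point per gene coloured by role, with a bar at the median of each class. The mitosis genes make up most of the CHR and CCAAT class, whose median of 0.820 FPKM lies below those of the other classes, 8.81 and 9.65 FPKM.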

How the data were processed

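Total RNA of sorted ECs was converted to non-stranded poly-A libraries (TruSeq v2) and sequenced as 51 bp paired-end reads. Per gene symbol and library, the table deposited by the authors holds 1 FPKM value, which is not a count. The submitters' processing notes name bcl2fastq 2.17, FastQC 0.11.5, Trimmomatic 0.36, TopHat2 2.1.0, Cufflinks 2.2.1 and mm10, with no role or order, and the gene annotation is not given in the sources used here. No filter, batch correction or rescaling was applied here, and 0 sample columns were left out.

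The 53 genes and all lists were chosen with earlier results of these data known. Every one of the 53 is named with its values. From each pathway or phase list, and only among genes whose mean reached 1 FPKM, the 2 most abundant and the 2 that varied most between libraries by ratio are named. From a marker list, the genes at 0 and the most abundant one are named. 1 marker list is not reported here. Neighbouring genes that share exons with a member and *Prox1* were looked up after the values were seen. Named in addition, also after the values were seen, were *Trp53*, *Mdm2*, *Gadd45a*, *Ccng1*, *Orc1*, *Mcm10*, *Cdc6*, *Gins2* and *Cdt1*.

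Mean ± SD, shares, ratios and counts used FPKM as deposited, with a limit of 1 FPKM, and differences used log2(FPKM + 1), which understates changes of low genes. As the 3 libraries form 1 group, no test was made. Depth was estimated by searching the step that makes low values of single-transcript genes whole fragments. Of 7079 such genes (800 to 4000 bp), only values worth up to about 6 fragments were scored. At the chosen step these were 323, 412 and 207 values in S38, S44 and S52. The estimates were 38000000, 38800000 and 33900000 fragments. Of the values used to choose the step, 78.3%, 77.4% and 74.9% lay within 0.15 of a whole number. The step search was tested on simulated data. Counting intervals (exact Poisson, 95%) rest on this estimate and cover counting error only. Exon overlaps and shared 51-base words came from GENCODE M21, which held 23318 of the 24346 symbols (95.8%). Promoters came from RefSeq on GRCm38.p6. Calculations used Python 3.11.15, numpy 2.4.6 and pandas 2.3.3.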

Additional observations from a re-analysis of the deposited data

How the results depend on the processing

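With 3 libraries of 1 group the limits are the spread between libraries and, for genes under 1 FPKM, the number of fragments. No paired analysis was possible because the libraries form 1 group and no test was made. Of the 53 gene levels, median-ratio scaling moved 0 by more than 1 SD and scaling each library to a sum of 1000000 FPKM moved 25. Leaving out 1 library cannot move a mean of 3 by 1 SD, but it moved the means of 9 genes by over 1.5 times. Without S44 the mean was 1.45 in place of 2.20 FPKM for *Cdk6*, 1.88 in place of 3.28 for *Cdkn2a*, 0.237 in place of 0.419 for *E2f2*, 0.120 in place of 0.226 for *Mki67* and 0.0950 in place of 0.177 for *Aurkb*. Without S52 it was 0.743 in place of 1.56 for *Ccne1*, 0.141 in place of 0.274 for *Bub1*, 0.276 in place of 0.738 for *Birc5* and 0 for *E2f8*, and the cyclin E/A and CDK2 median was 0.927 in place of 1.49. That scaling gave a median of 2.19 FPKM over the 53 genes, and medians of 48.3 for the cyclin D and CDK4/6 genes, 26.7 for Cip/Kip, 7.52 for pocket proteins, 6.75 for replication and 0.546 for mitosis, since it divides by sums above 1000000. Leaving out 1 library in turn gave 58.2 to 70.2 FPKM for the cyclin D and CDK4/6 median, 0 to 1 genes listed at 0 in every library and 3 to 7 genes over 2-fold. Without a filter on low values 20 genes were over 2-fold, and with a mean of at least 10 FPKM 1 was. A limit of 0.1 FPKM in every library was passed by 46 of the 53 genes and by 35 of the G2/M list. No share of all genes was taken at the alternative limits and filters or with a library left out. Counts at those settings therefore describe the members and lists alone. A limit of 10 FPKM was passed by 13 of the 53, 3 MuvB and E2F partners, 0 CDK activation genes, 4 licensing partners, 9 S phase genes and 9 G2/M genes. Over members with a mean of at least 1 FPKM the group medians were 2.03 for cyclin B and CDK1, 10.1 for E2F factors and 2.22 for mitosis genes. In the shorter promoter window 7 member promoters (14.3%) held an E2F site, beside 1.27% of all promoters. At 0.1 FPKM the S phase count was 33 in place of 24 and the licensing count 15 in place of 11, and at 10 FPKM the APC/C and SCF count was 9 in place of 13. The median difference between libraries changed sign under sum scaling, from 0.04 to -0.25 for S44 minus S38 and from 0.03 to -0.02 for S52 minus S38, and the latter was also negative, at -0.01, over the 36 genes whose mean was at least 1 FPKM.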
